A study of Rattus norvegicus with 6 samples.

Results

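The expression of cartilage and growth plate genes was examined in the skeletal muscle of newborn lower birth weight (LBW) and average birth weight (ABW) rats. The set holds 10 genes by symbol, namely *Acan*, *Col2a1*, *Col9a1*, *Col11a1*, *Hapln1*, *Comp*, *Chad*, *Sox9*, *Col10a1* and *Panx3*. Of these, 7 had a row on the array, out of 26299 features in all. *Sox9*, *Col9a1* and *Col11a1* could not be matched to any row and are not analysed here. The genes were chosen by their known place in cartilage and from earlier results of the same LBW against ABW comparison, because *Panx3*, *Acan* and *Col10a1* are among the genes that the study lists for their higher signal in LBW pups. The differences of the 7 genes are therefore given as a description, without a test. RNA came from the pooled soleus and gastrocnemius muscles of 1-day-old male Wistar rats that carried no treatment or modified allele. There were 3 LBW pups (percentiles 5 to 25 of birth weight) and 3 ABW pups, each on a single-color NimbleGen array. The ABW pups are placed in percentiles 50 to 75 by the group protocol and in percentiles 25 to 75 by the sample annotation. The sources used here do not say which pups shared a litter.

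Cartilage is built by chondrocytes, which secrete a network of type II, IX and XI collagen that holds the large proteoglycan aggrecan in place. In the growth plate of a long bone, round resting chondrocytes give rise to columns of flat proliferating cells, which then enlarge into hypertrophic cells, switch to type X collagen and are replaced by bone. At birth parts of the limb skeleton are still cartilage, and muscles attach to the skeleton through tendons. Several of the cartilage matrix genes, such as *Comp*, *Chad* and *Acan*, are also expressed in tendon.

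The sequence just upstream of the annotated start was available from RefSeq for 5 of the 7 genes (build GRCr8), whereas *Panx3* and *Col2a1* had no entry. The 250 bases before the start are shown for *Acan* (GC-rich), for *Col10a1* (AT-rich, and the marker of hypertrophic cells) and for *Hapln1*, which held a match to both motifs searched. Capitals mark matches to the core of the SOX family motif (ACAAAG or ACAATG) or to the RUNX core (ACCACA), searched on both strands. The 3 regions are chr1:142390701-142390950, chr20:39737286-39737535 and chr2:22366717-22366966, all on the plus strand.
Acan: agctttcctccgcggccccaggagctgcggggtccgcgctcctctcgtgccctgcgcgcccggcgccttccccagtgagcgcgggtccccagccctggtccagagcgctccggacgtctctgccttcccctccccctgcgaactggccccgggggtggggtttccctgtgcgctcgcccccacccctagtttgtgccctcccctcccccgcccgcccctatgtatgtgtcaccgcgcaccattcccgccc
Col10a1: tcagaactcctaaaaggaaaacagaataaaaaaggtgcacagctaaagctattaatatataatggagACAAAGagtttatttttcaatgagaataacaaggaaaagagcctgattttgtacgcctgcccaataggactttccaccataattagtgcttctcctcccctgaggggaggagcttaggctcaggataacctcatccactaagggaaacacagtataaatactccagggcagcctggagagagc
Hapln1: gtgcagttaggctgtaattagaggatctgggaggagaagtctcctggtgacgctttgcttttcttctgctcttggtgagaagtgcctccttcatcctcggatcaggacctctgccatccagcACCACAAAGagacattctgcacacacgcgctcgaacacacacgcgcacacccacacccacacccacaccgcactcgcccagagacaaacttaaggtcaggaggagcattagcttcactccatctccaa
The GC content of these windows was 73.6% for *Acan*, 41.6% for *Col10a1* and 54.0% for *Hapln1*, compared to a median of 51.2% over all 33469 promoters. *Acan* held 24 CpG dinucleotides and *Col10a1* held 1. The SOX core was present in 2 of the 5 genes with a row, *Col10a1* at bases 183 to 178 before the start and *Hapln1* at bases 125 to 120, and in 25.3% of all promoters. The RUNX core was present only in *Hapln1*, at bases 128 to 123, where it overlaps the SOX core, and in 14.5% of all promoters. *Comp* and *Chad* held neither. These matches are letters in a window and were not tested as binding sites.

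The authors deposited 1 log2 signal for each transcript and pup, with array medians between 8.70 and 8.76 and values from 4.58 to 15.49. The muscle identity of the samples was seen in all 6 pups, since *Acta1*, the actin of skeletal muscle fibers, was between 15.15 and 15.41. Of 9 skeletal muscle genes, 0 passed the threshold, beside 4.27% of all features, and nothing is read from that count. The threshold, which follows the study, asked for a 1.5-fold change or more together with an unadjusted p below 0.05. At this threshold limma called 1123 of 26299 features (4.27%), of which 626 (2.38%) had the higher mean in LBW and 497 (1.89%) in ABW pups. No feature (0%) had an adjusted p under 0.05 by limma with Benjamini-Hochberg adjustment, although 3249 (12.4%) had an unadjusted p under 0.05. LBW 2 stood apart from LBW 1 and LBW 3 in most of the 7 cartilage genes, and results are therefore also given without it. That was seen in the same values, and leaving LBW 2 out raised the differences of all 7 genes. The array weights estimated by limma did not single out LBW 2 (0.91). They were lowest for LBW 3 (0.58), which was the highest pup in all 7 genes. Because this is bulk tissue, fewer cells of a type and less RNA per cell cannot be told apart.

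All 7 cartilage genes had a higher mean signal in LBW than in ABW pups, with log2 differences from 0.33 to 3.20 and a median of 1.31, whereas the median over all features was -0.02. *Panx3*, *Acan* and *Col10a1* were past the threshold, which is 3 of 7 beside 2.38% of all features in that direction, and all 3 were chosen with this difference known. None of the other 4 genes passed it. The count was 6 without LBW 2 and 1 without any other single pup, and nothing is read from it, since the same comparison chose the genes. In every one of the 7 genes the LBW pups stood in the order LBW 3, LBW 1 and LBW 2 from high to low, an order that 17.0% of all features and 224 of the 626 features called higher (35.8%) also had. LBW 1 and LBW 3 were above every ABW pup in all 7 genes. LBW 2 was within the ABW values in 5 of the 7. The exceptions were *Col10a1*, in which LBW 2 lay clearly above the ABW pups, and *Panx3*, in which it lay above the highest ABW pup by 0.0035. The share of all features with either of these patterns of LBW 1 and LBW 3 or of LBW 2 was not computed. Nothing is therefore read from these counts.

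**Figure D1:**
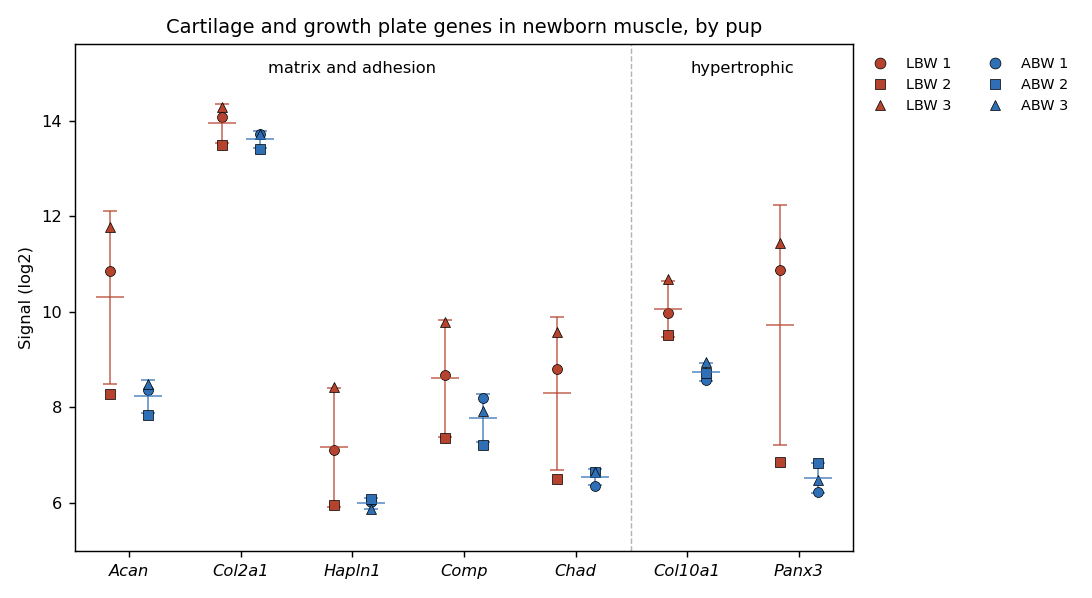
Log2 signal of the 7 cartilage genes (x axis) in each pup, with LBW in red and ABW in blue and the replicate number shown by the marker; the horizontal bar is the group mean and the error bar the SD (n = 3). LBW 3 is the highest of all pups in every gene, and LBW 2 lies with the ABW pups except in *Col10a1*, where its 9.52 is above the highest ABW value of 8.95.

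Aggrecan (*Acan*), the proteoglycan whose sulfated chains draw water into cartilage, was at 10.85, 8.29 and 11.77 in LBW 1, 2 and 3. In ABW 1, 2 and 3 it was at 8.37, 7.84 and 8.49. LBW 1 and LBW 3 were thus far above the ABW pups, while LBW 2 was among them and the groups overlapped. The log2 difference was 2.07 (SE 0.84), a 4.19-fold higher mean. Leaving out LBW 2 gave 3.07 and leaving out LBW 3 gave 1.33. On the linear scale, LBW 3 was 11.6-fold and LBW 1 was 6.13-fold above the ABW mean, compared to 1.04-fold for LBW 2.

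The link protein gene *Hapln1*, whose product fastens aggrecan to hyaluronan, was at 7.12, 5.95 and 8.44 in LBW 1, 2 and 3, and at 6.03, 6.09 and 5.87 in ABW 1, 2 and 3. The ABW pups lay close together (SD 0.11, n = 3), at percentile 21.3 of the features by their mean, and LBW 2 could not be set apart from them. The difference of 1.17 (SE 0.57) became 1.78 without LBW 2 and 0.54 without LBW 3. LBW 3 was 5.43-fold and LBW 1 was 2.18-fold above the ABW mean. Of the pair that forms the aggregate with hyaluronan, both *Acan* and *Hapln1* were thus higher in the same pups.

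Type II collagen (*Col2a1*), the main fibril of cartilage, had the smallest difference. It was at 14.07, 13.48 and 14.28 in LBW 1, 2 and 3 and at 13.72, 13.41 and 13.71 in ABW 1, 2 and 3. The signal was bright in every pup, at percentile 96.5 of the features in the ABW mean, and the groups overlapped through LBW 2. Its difference was 0.33 (SE 0.22), a 1.26-fold higher mean. Without LBW 2 it was 0.56, which is still smaller than the difference of any of the other 6 genes without that pup. LBW 3 was 1.59-fold and LBW 1 was 1.37-fold above the ABW mean.

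*Comp*, a pentameric matrix protein of cartilage and tendon, was the gene with the widest ABW values. Its signal was 8.68, 7.35 and 9.79 for LBW 1, 2 and 3, against 8.19, 7.22 and 7.92 in ABW 1, 2 and 3. The difference of 0.83 (SE 0.60) was within the spread of the LBW pups (SD 1.22, n = 3), and without LBW 3 it was 0.24. LBW 2 was at 0.746 times the ABW mean, the lowest ratio of that pup among the 7 genes. *Chad*, a leucine-rich repeat protein that binds chondrocytes to collagen, was at 8.81, 6.51 and 9.57 in LBW 1, 2 and 3, and at 6.36, 6.65 and 6.65 in ABW 1, 2 and 3. The ABW pups and LBW 2 were together at the low end, with LBW 1 and LBW 3 apart from them. Its difference was 1.75 (SE 0.73), and 2.64 without LBW 2.

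*Col10a1*, the collagen made by hypertrophic chondrocytes, was the gene in which the 2 groups stood apart most evenly. It was at 9.97, 9.52 and 10.68 in LBW 1, 2 and 3 and at 8.58, 8.71 and 8.95 in ABW 1, 2 and 3. The lowest LBW pup was 0.57 above the highest ABW pup, and 7.27% of all features had every LBW pup above every ABW pup. The difference was 1.31 (SE 0.29), a 2.48-fold higher mean, with the smallest SE after that of *Col2a1*. LBW 2 was 1.71-fold above the ABW mean, its highest ratio among the 7 genes. With single pups left out the difference lay between 1.00 and 1.58. The row of *Col10a1* could be named only because the study lists it as higher in LBW pups.

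*Panx3*, a membrane channel of prehypertrophic and hypertrophic chondrocytes and of osteoblasts, had the largest difference and the largest spread. LBW 1 and LBW 3 were at 10.88 and 11.44, while LBW 2 was at 6.85. ABW 1, 2 and 3 were at 6.23, 6.85 and 6.48. The LBW mean was 3.20 higher (SE 1.15), or 9.22-fold, and 4.64 higher without LBW 2. LBW 3 was 30.4-fold and LBW 1 was 20.5-fold above the ABW mean, and LBW 2 was 1.26-fold above it. The ABW mean was at percentile 29.5 of the features. How far such dim values lie above background is unknown here, because no detection call was available.

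Across the 6 pups the 7 genes followed each other closely. Pearson's r, given as a description over pups that fall into 2 groups, ran from 0.78 (*Col10a1* with *Comp*) to 0.99 (*Panx3* with *Chad*) over the 21 pairs, with a median of 0.915. LBW 1 and LBW 3 were above every ABW pup in all 7 genes, which by itself makes these values high. The genes were also chosen with results of this comparison known, and no other gene pairs were set beside them.

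The genes were then compared by growth plate zone, with wider lists of other cartilage genes. Of 76 listed genes, 42 had a row. Their median difference was 0.06, with 27 higher and 15 lower in LBW pups, beside 11682 higher and 14617 lower of all 26299 features. Of the 42 genes, 6 passed the threshold, all of them higher in LBW, beside the 2.38% of all features. No gene had an adjusted p under 0.05. Of the 6 called genes, 5 (*Mmp13*, *Spp1*, *Ibsp*, *Alpl* and *Runx2*) belong to the list that hypertrophic chondrocytes share with osteoblasts, and the study printed these 5 among its genes with higher signal, so that they are not independent evidence of the direction. *Mmp13* and *Runx2* have a named row only through that printed list. Among the other 36 genes the median was 0.04 and 1 gene (*Sox6*) was called.

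Resting zone genes did not pass the threshold. Of 7 listed, 3 had a row, and the median difference was 0.06. *Pthlh*, the ligand that holds chondrocytes back from hypertrophy, differed by -0.28 (SE 0.22, adjusted p = 0.642 by limma). *Grem1*, a BMP antagonist, differed by 0.18 and *Gdf10* by 0.06, both less than their SE.

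In the proliferating zone list 5 of 8 genes had a row, with a median difference of 0.21. *Sox6*, a transcription factor that works with *Sox9* in chondrocytes and is also active in skeletal muscle, was the single gene called. It was at 11.22, 11.44 and 10.99 in LBW 1, 2 and 3 and at 10.45, 10.66 and 10.61 in ABW 1, 2 and 3, so that every LBW pup was above every ABW pup and LBW 2 was the highest. Its difference was 0.65 (SE 0.14, adjusted p = 0.251 by limma). It fell below a 1.5-fold change without LBW 2 (0.54) and without ABW 1 (0.58). *Sox5*, its close relative, differed by 0.21 and the receptor *Fgfr3* by 0.19. The cartilage-restricted genes *Matn1*, a matrix protein, and *Cnmd*, an inhibitor of vessel growth, were dim in every pup. *Matn1* was between 5.72 and 6.14 in LBW and between 5.82 and 6.02 in ABW pups, and *Cnmd* was between 5.27 and 5.44 and between 4.84 and 5.59. The ABW means of *Matn1* and *Cnmd* were at percentiles 20.3 and 3.14 of the features.

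In the list of prehypertrophic and hypertrophic genes, 6 of 8 had a row. All 6 were higher in LBW pups, as were 11682 of all 26299 features, and none passed the threshold, with a median of 0.24. *Sgms2*, a sphingomyelin synthase needed for mineralization, had signals of 9.16, 7.70 and 9.88 for LBW 1, 2 and 3, against 7.59, 8.26 and 7.74 in ABW 1, 2 and 3. Its LBW pups kept the order of the 7 cartilage genes, and its difference was 1.05 (SE 0.54, adjusted p = 0.482 by limma). *Runx3* differed by 0.51 (SE 0.30) and *Pth1r*, the receptor of *Pthlh*, by 0.24 (SE 0.33). Without LBW 2 these 3 genes passed the threshold, with differences of 1.66, 0.86 and 0.61, whereas without LBW 3 that of *Pth1r* was -0.09. Over all 26299 features, 957 were called higher without LBW 2, against 626 with all pups. *Enpp1*, which makes pyrophosphate, an inhibitor of mineral, differed by 0.25. The 6 genes shared with osteoblasts had a median difference of 3.71, and 5 were called. *Mmp13*, the collagenase of terminal hypertrophic cells, was at 10.62, 8.59 and 12.78 in LBW 1, 2 and 3 and between 5.40 and 5.57 in ABW pups, so that even LBW 2 was far above the ABW pups. The mineral-binding matrix proteins *Spp1* and *Ibsp* differed by 5.02 and 4.73. *Sp7*, a factor of osteoblasts and late chondrocytes and the 1 gene of the list not printed by the study, differed by 1.39 (SE 0.76, adjusted p = 0.513 by limma), and by 2.24 without LBW 2, where it was called. *Runx2*, the transcription factor that starts hypertrophy, differed by 2.26 (SE 0.79, adjusted p = 0.348 by limma). It was called with all pups, without LBW 2 and without ABW 1, but not without LBW 1 (2.16), LBW 3 (1.48), ABW 2 (2.07) or ABW 3 (2.19). *Alpl*, the phosphatase of mineralization, differed by 2.68 and was not called without LBW 1 (2.38). By the methods' test neither *Runx2* nor *Alpl* was called, which left 4 of the 6 wider genes.

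**Figure D2:**
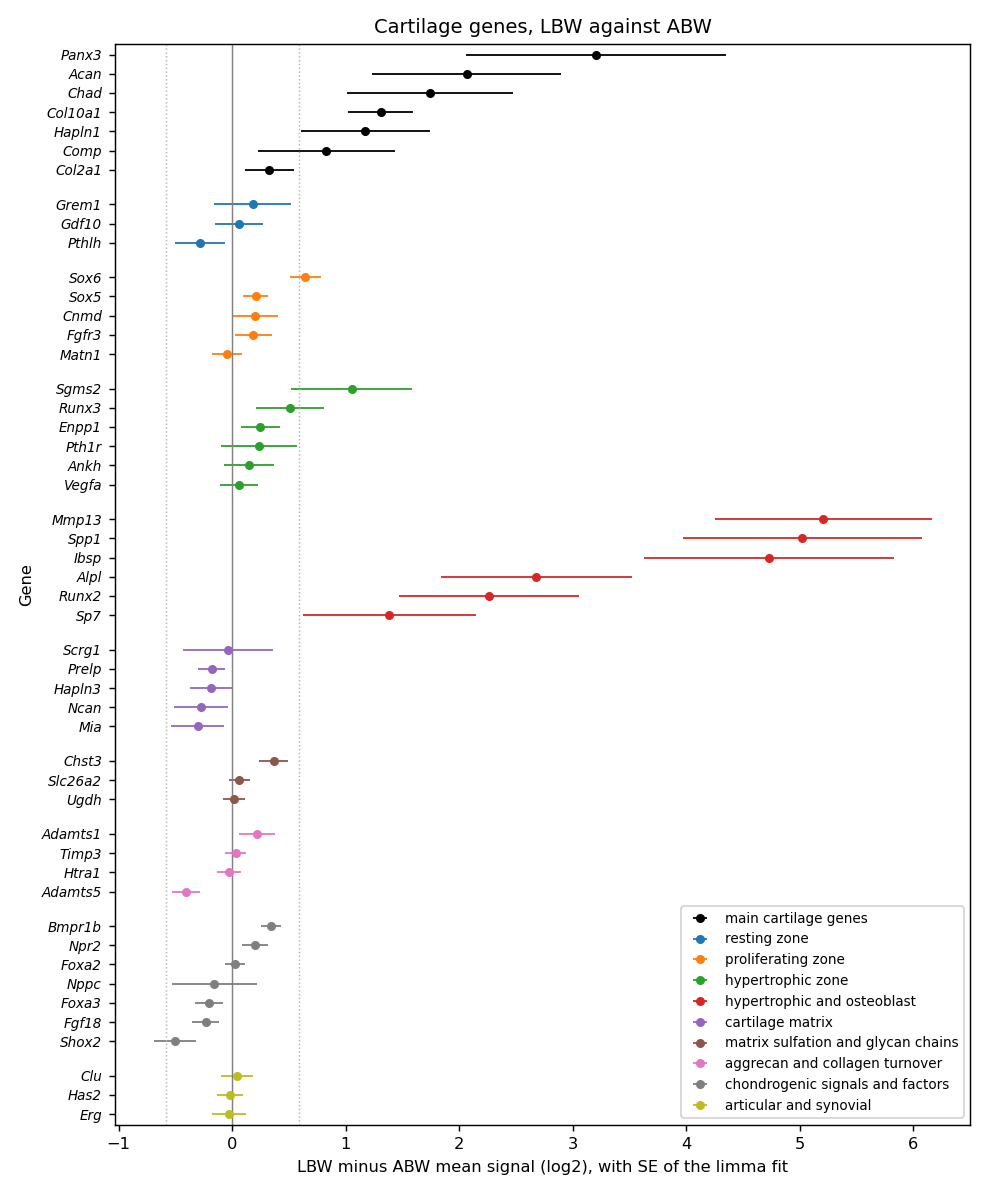
Difference between the LBW and ABW mean log2 signal (x axis) for the 7 main cartilage genes and the 42 genes of the wider lists (y axis), colored by list; points are the differences, bars the SE of the limma fit, and dotted lines a 1.5-fold change. Apart from the main genes and the genes shared with osteoblasts, *Sgms2* and *Sox6* are the only genes beyond the dotted lines.

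Of 14 further genes listed as cartilage matrix, only 5 had a row, so most of that list could not be examined. All 5 were lower in LBW pups, as were 14617 of all 26299 features. None was past the threshold, with differences from -0.30 to -0.04 and a median of -0.18. The largest were those of *Mia* (-0.30, SE 0.23) and of the proteoglycan *Ncan* (-0.28, SE 0.24). *Mia* was dim, with its ABW mean at percentile 17.7 of the features. *Prelp*, a collagen-binding protein abundant in cartilage and in other connective tissue, differed by -0.18 (SE 0.12) and *Hapln3*, a relative of *Hapln1*, by -0.18 (SE 0.18). Of 3 genes for sulfated sugar chains, *Chst3*, a sulfotransferase for chondroitin, was highest at 0.36 (SE 0.13, adjusted p = 0.348 by limma). The sulfate transporter *Slc26a2* differed by 0.06. Among the enzymes that cut aggrecan and their inhibitors, 4 of 6 had a row and none was called. *Adamts5*, the main aggrecanase, was at 11.81, 11.54 and 11.75 in LBW 1, 2 and 3 and at 11.93, 12.24 and 12.16 in ABW 1, 2 and 3. All 3 LBW pups lay under the lowest ABW pup, but the difference of -0.41 (SE 0.12, adjusted p = 0.308 by limma) was under a 1.5-fold change.

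Among signals and transcription factors of chondrogenesis, 7 of 13 had a row, the median difference was -0.16, and none was called. *Bmpr1b*, a BMP receptor of cartilage condensations, differed by 0.34 (SE 0.09, adjusted p = 0.277 by limma). *Shox2*, a limb homeobox factor, differed by -0.50 (SE 0.19, adjusted p = 0.368 by limma), and was called as lower without LBW 3 (-0.66) and without ABW 1 (-0.63). *Fgf18*, the ligand of Fgfr3 in the growth plate, differed by -0.23 (SE 0.12). The 3 articular and synovial genes with a row (of 5) differed by at most 0.04 in either direction.

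Markers of the tissues that lie next to growth plate cartilage moved with the 7 genes to different degrees. The mean deviation of the 7 genes from the ABW mean was 1.85, 0.07 and 2.65 for LBW 1, 2 and 3, and between -0.10 and 0.09 in the ABW pups. For 14 genes of osteoblasts and osteocytes (of 16 listed), the same measure was 2.33, 0.34 and 3.13 in LBW 1, 2 and 3, and 7 were called, all higher, beside 2.38% of all features. The study printed 5 of these 7 as higher in LBW pups (*Runx2*, *Alpl*, *Ibsp*, *Spp1* and *Bglap*), so that they are not independent evidence, and the other two were *Phex* and *Smpd3*. This list shares 5 genes with the list of hypertrophic and osteoblast genes. Their defining gene *Bglap* was at 13.10, 8.80 and 12.82 in LBW 1, 2 and 3 and between 7.91 and 8.02 in ABW pups. *Dmp1*, *Mepe* and *Dlx5*, which the study did not print, differed by 2.99, 1.58 and 1.13 (SE 1.36, 0.96 and 0.67) and were not called. The bright matrix genes *Col1a2* and *Sparc*, which fibroblasts also express, were lower in LBW pups by mean, with differences of -0.17 and -0.11 that did not pass the threshold. For 7 osteoclast genes (of 11) it was 1.29, 0.08 and 2.20, and 2 were called, with *Acp5* at 11.60, 9.65 and 12.71 in LBW 1, 2 and 3 and between 8.98 and 9.61 in ABW pups. Both called genes, *Acp5* and *Mmp9*, were printed by the study. The median deviation of the list was smaller, at 0.37, 0.01 and 1.02 in LBW 1, 2 and 3. *Atp6v0d2*, which the study did not print, was at 8.19, 5.35 and 10.52 in LBW 1, 2 and 3. In ABW pups it was between 5.15 and 5.53, and its difference of 2.68 (SE 1.18) was not called. *Itgb3*, *Ctsk*, *Calcr* and *Car2* differed by 0.46, 0.29, 0.07 and -0.04. For 6 genes of neutrophil precursors (of 9), found in bone marrow, it was 2.35, 1.07 and 2.00, with 5 called. All 5 were printed by the study as higher in LBW pups, and *Camp* and *Ngp* have a named row only for that reason, so that neither the count nor the mean is independent evidence. The remaining gene, *Lcn2*, differed by 0.12. The 3 tendon genes with a row (of 8) were at 0.23, -0.25 and 0.39 and none was called. *Tnmd*, which marks tendon cells, was bright in all pups, between 12.39 and 13.03 in LBW and between 12.54 and 12.97 in ABW. *Fmod*, a collagen-binding proteoglycan of tendon and cartilage, was at 13.76, 12.64 and 13.88 in LBW 1, 2 and 3 and between 12.68 and 13.13 in ABW pups. Its LBW pups stood in the order of the 7 genes, and its difference was 0.51 (SE 0.33, adjusted p = 0.579 by limma). *Egr1* differed by -0.26. The part that any of these tissues had in the values of the 7 genes was not tested.

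**Figure D3:**
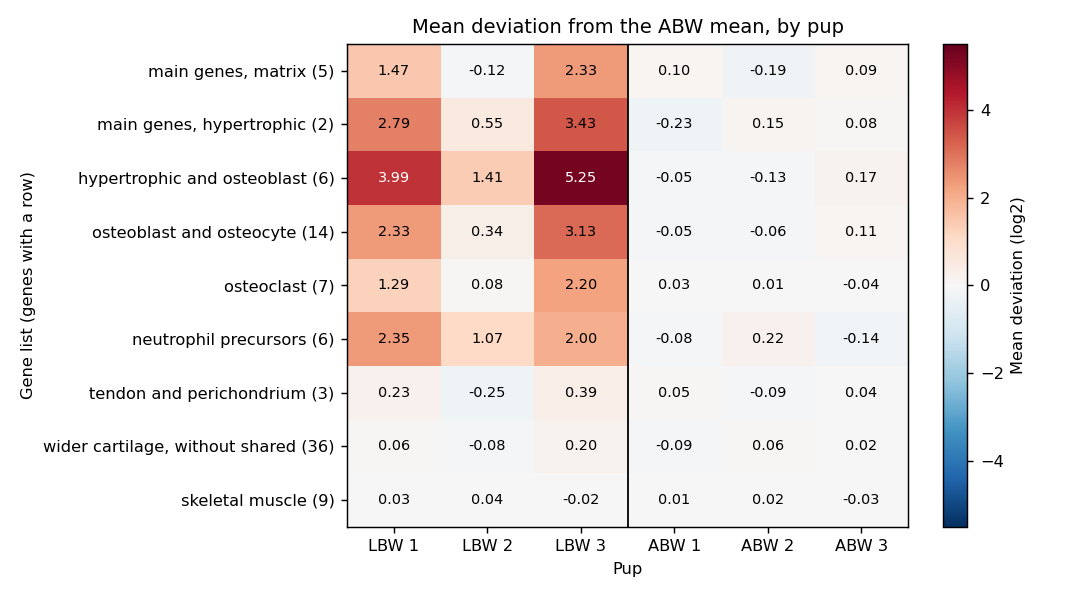
Mean deviation of each gene list (y axis, with the number of genes that had a row) from its ABW mean in each pup (x axis), on the log2 scale and colored from blue to red. The lists of bone, osteoclast and neutrophil genes are high in LBW 1 and LBW 3, in which the main cartilage genes are high. In LBW 2 the hypertrophic and osteoblast list (1.41) and the neutrophil list (1.07) are also above the ABW mean. The 36 wider cartilage genes and the muscle genes stay between -0.09 and 0.20.

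Named genes outside the set were ranked by how closely they followed the mean of the 7 genes over the 6 pups (Pearson's r, 9647 symbols, 52 of which were above 0.95). The 8 closest were *Mmp9*, a gelatinase of osteoclasts (r = 0.996), *Olr1198*, *Taar3*, the osteocyte gene *Dmp1* (r = 0.993), *Pdlim5*, *Smpd3*, *Cort* and *S100a6* (r = 0.989). *Mmp9*, *Dmp1* and *Smpd3*, an enzyme of bone and cartilage mineralization, had differences of 2.89, 2.99 and 1.11. Those of *Olr1198* and *Taar3* were 0.59 and 0.74, and both were dim, between 5.21 and 6.83 in all pups. Those of *Pdlim5*, *Cort* and *S100a6* were each 0.26. *Panx3* was followed most closely by *Tnn*, a tenascin of bone-forming tissue, at r = 0.998. The study printed both genes as higher in LBW pups, so that their likeness is not independent evidence. *Tnn* was at 9.33, 6.33 and 9.66 in LBW 1, 2 and 3 and between 5.89 and 6.10 in ABW pups. After it came *Or8b12d* and the cyclin gene *Ccnd1*, with differences of 0.51 and 0.29. *Emp3* (r = 0.996) and *Adgrf5* (r = 0.980) were among the genes that followed *Col2a1* closely, with differences of 0.09 and 0.11. With 6 pups, high correlations are common among so many symbols, and these ranks are a description.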

How the data were processed

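NimbleGen rat arrays with 5 probes per transcript were hybridized with muscle RNA, 1 array for each of 3 LBW and 3 ABW pups. The authors normalized the raw signals in R and deposited log2 values for 26419 transcripts; the submitters' processing notes name RMA. The log base was settled against the study's printed fold changes, and the background and detection of single probes are unknown.

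Rows were named by accession from a RefSeq gene table (GRCr8, 9740 rows) and from the accessions of the study's supplementary tables (34 more, *Col10a1* among them). Rows of a symbol were averaged, which left 26299 features. limma 3.58.1 in R 4.3.3 was fitted to all of them (lmFit and eBayes, two-sided), with Benjamini-Hochberg adjustment, and was checked on simulated data. A feature was called when it changed by 1.5-fold or more with an unadjusted p below 0.05. The array design follows another build, so positions are given only for promoters. Arrays have no count depth, and their number limits the precision. An exact permutation test of 3 pups against 3 cannot go below 0.1 and was not used.

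The genes and lists were chosen with earlier results of these data known. Named in the text are the 7 genes, in each wider list the called genes and up to 4 with the largest difference, list-defining genes of other tissues, and the closest genes by correlation. Of the other tissues' genes, only those a result turns on are given. Of these, *Col1a2*, *Sparc*, *Ctsk*, *Calcr*, *Car2*, *Lcn2*, *Phex*, *Atp6v0d2*, *Itgb3*, *Mepe* and *Dlx5* were chosen after their values were seen. Also, 1 of the genes closest by correlation is not reported here.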

Additional observations from a re-analysis of the deposited data

How the results depend on the processing

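Results were recomputed with each pup left out, with a replicate block, with arrays centred on their median or quantile-normalized, without the dimmest 25% of features, with a trended or robust variance, with array weights, by the methods' test, with rows fitted singly, with RefSeq names alone and at a fold change of at least 2. Leaving out the genes printed in the supplementary tables was added after seeing the data. None of the 7 cartilage genes and none of the called genes of the wider lists changed direction under any of them. The number of features past the threshold (1123) was 583 by the methods' test and 334 at a fold change of at least 2, and between 797 and 1545 with 1 pup left out. After adjustment it was 0 under every alternative except without LBW 2 (124).

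Of the 7 cartilage genes, 3 were past the threshold. The count was 1 by the methods' test, 0 of 4 without the genes printed in the supplementary tables, and between 1 and 6 with 1 pup left out (6 without LBW 2, 1 without any other). It was 2 of 6 with RefSeq names alone, which do not name *Col10a1*. Under the remaining alternatives it was 3 or 4, and *Chad* was the fourth. Their median difference stayed between 1.00 and 1.78 throughout. The number of wider cartilage genes past the threshold (6) was 1 without the genes printed in the supplementary tables, 4 by the methods' test, 4 with RefSeq names alone, 5 at a fold change of at least 2 and between 4 and 9 with 1 pup left out.

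Over all features, the deviations of same-numbered pups correlated at 0.087, 0.104 and 0.055. This does not settle whether the replicate numbers pair the pups. With the replicate block, 1229 features, 4 of the 7 cartilage genes and 6 of the wider genes were past the threshold. The SE of each of the 7 genes was smaller with the block. For *Acan* it was 0.56 instead of 0.84, for *Col2a1* 0.13 instead of 0.22 and for *Comp* 0.36 instead of 0.60. The block also leaves less data to estimate the spread, so a smaller SE is not by itself stronger support. For *Sox6* the SE was 0.124 instead of 0.135, yet the unadjusted p by limma was 0.0043 instead of 0.0025. The unknown background limits what can be read from dim genes such as *Cnmd*, *Matn1*, *Hapln1* and *Panx3*.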

Other observations

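The order of the LBW pups differed between gene lists. All 6 genes that hypertrophic chondrocytes share with osteoblasts stood in the order LBW 3, LBW 1 and LBW 2, as did 11 of the 14 osteoblast and osteocyte genes and 6 of the 7 osteoclast genes. The study printed 5, 5 and 2 genes of these lists as higher in LBW pups. Of the 6 genes of neutrophil precursors 1 stood in that order, and 17.0% of all features did. The step from LBW 1 to LBW 3 also varied between the cartilage genes. On the log2 scale it was 0.21 for *Col2a1*, 0.57 for *Panx3*, 0.71 for *Col10a1*, 0.77 for *Chad*, 0.92 for *Acan*, 1.11 for *Comp* and 1.32 for *Hapln1*. It was 2.16 for *Mmp13*, whereas *Bglap* was lower in LBW 3 than in LBW 1 by 0.27.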
